A study of Mus musculus with 16 samples.

Results

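The 9 genes described here mark blood monocytes and the cells that descend from them: Ly6c2, Plac8, Lyz2, Vcan, F10, F13a1, Chil3, Hp and Ace. They were taken as a named list from the 50600 genes of the count table, and 9 of 9 were found and passed the filter on low counts, which left 16345 genes. RNA was sequenced from cells sorted from male mice aged 13 to 14 weeks, in 4 groups of 4 libraries. Control microglia are CX3CR1+ cells of control brains, and ischemic microglia are CX3CR1+ cells of the hemisphere on the side of the ischemia; both came from the genotype CX3CR1CreERT2:Rosa26-tdT, in which an inducible Cre made under the Cx3cr1 promoter switches on the red fluorescent protein tdTomato. Brain CD11c cells are the CD11c-eYFP+ cells of the ischemic hemisphere of the genotype Tg(Itgax-Venus)1Mnz, in which a yellow fluorescent protein marks cells that use the promoter of Itgax, the gene of the integrin CD11c. Spleen CD11c cells are the CD11c-eYFP+ cells of the spleen in the same line. Microglia and CD11c cells therefore differ in mouse line and reporter as well as in cell type, and these cannot be told apart. For the state of the spleen donors, the Cre induction and the time after ischemia, the sources used here give nothing. The labels do not say whether libraries of a group came from separate animals, so each p-value measures only the spread between these libraries.

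Classical monocytes leave the bone marrow, carry Ly6C on their surface, and enter injured tissue, where they can become macrophages or dendritic cells. Nonclassical monocytes have little Ly6C, patrol vessel walls, and are marked in mice by genes such as Ace, Treml4 and Cd300e. Microglia arise from yolk sac precursors and live in the brain for long periods, and Cx3cr1, whose promoter marks them here, is also used by monocytes. Of the 9 genes, Ly6c2 and Plac8 mark the cells themselves, Lyz2, Chil3 and Hp encode secreted products of phagocytes, and Vcan, F10 and F13a1 encode a matrix component and 2 proteins of the clotting system. Ace encodes an enzyme that makes angiotensin II.

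Library totals lay between 31.57 and 48.25, in units of 1e6 counts. The markers of homeostatic microglia summed to between 35020 and 42000 CPM (counts per 1e6 counts of the scaled library) in control microglia, to between 24820 and 35070 in ischemic microglia, to between 10870 and 11660 in brain CD11c cells, and to between 307 and 460 in spleen CD11c cells. RNA of microglial genes was thus present in every brain CD11c library, at a similar level. Conventional dendritic cell markers, Itgax among them, summed to between 1118 and 2651 CPM in brain CD11c cells, to between 1259 and 2183 in spleen CD11c cells, and to at most 134 in microglia. Spleen CD11c libraries also held B cell markers at between 3517 and 4447 CPM, against at most 91.5 in any brain library. In bulk samples such as these, fewer cells of a type and less RNA per cell cannot be told apart.

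For 3 of the genes a near copy lies nearby on the same chromosome, and the sequences of the start regions are shown because the near copies were counted at other levels than the genes themselves. The sequences are from RefSeq on GRCm38.p6, read 5′ to 3′ on the minus strand, and stop at the gene's start in RefSeq or GENCODE M21, whichever lies further upstream. Each is cut to the stretch that aligned with its partner, and capitals mark bases with no identical partner. The RefSeq windows of Lyz2 and Lyz1 ran further towards the start, and the bases left out there were identical between the 2 genes. The identity given for this pair therefore covers the printed stretch only. Lyz2 was taken at chr10:117282322-117282521 and Lyz1 at chr10:117292918-117293118, with 151 of 199 aligned bases identical (75.9%).
Lyz2: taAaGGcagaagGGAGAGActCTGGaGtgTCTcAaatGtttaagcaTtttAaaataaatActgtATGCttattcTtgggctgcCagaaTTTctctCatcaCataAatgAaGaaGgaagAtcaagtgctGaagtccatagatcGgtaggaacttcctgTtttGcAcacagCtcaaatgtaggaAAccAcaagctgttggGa
Lyz1: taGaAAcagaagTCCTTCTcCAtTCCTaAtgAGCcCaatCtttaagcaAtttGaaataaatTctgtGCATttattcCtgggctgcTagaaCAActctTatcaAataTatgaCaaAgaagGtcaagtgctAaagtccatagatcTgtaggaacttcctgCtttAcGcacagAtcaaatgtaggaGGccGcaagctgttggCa
Ly6c2 was taken at chr15:75111997-75112221 and Ly6c1 at chr15:75048838-75049056, with 164 of 216 aligned bases identical (75.9%).
Ly6c2: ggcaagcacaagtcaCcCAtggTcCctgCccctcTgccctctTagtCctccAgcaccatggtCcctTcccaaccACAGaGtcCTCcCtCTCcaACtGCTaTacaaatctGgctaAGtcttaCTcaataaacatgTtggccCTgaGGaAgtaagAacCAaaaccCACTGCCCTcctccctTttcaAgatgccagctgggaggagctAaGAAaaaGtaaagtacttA
Ly6c1: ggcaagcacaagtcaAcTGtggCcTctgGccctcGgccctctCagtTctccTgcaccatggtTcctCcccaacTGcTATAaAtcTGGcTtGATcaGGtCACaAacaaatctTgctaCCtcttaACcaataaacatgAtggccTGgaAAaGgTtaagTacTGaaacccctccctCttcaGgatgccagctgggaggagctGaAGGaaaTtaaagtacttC
Chil3 was taken at chr3:106167565-106167786 and Chil4 at chr3:106219508-106219729, with 201 of 221 aligned bases identical (91.0%).
Chil3: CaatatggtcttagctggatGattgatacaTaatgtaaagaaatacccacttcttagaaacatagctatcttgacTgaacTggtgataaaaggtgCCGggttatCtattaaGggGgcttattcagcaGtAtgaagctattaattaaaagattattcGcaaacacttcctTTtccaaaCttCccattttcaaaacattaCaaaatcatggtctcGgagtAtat
Chil4: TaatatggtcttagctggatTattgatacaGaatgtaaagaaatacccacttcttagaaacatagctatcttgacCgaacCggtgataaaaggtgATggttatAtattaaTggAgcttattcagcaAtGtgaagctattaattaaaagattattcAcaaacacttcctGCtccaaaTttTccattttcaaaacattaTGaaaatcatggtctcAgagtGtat

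In brain CD11c cells the mean levels within each pair were far apart, and other groups are not compared here. Per kb of exon, Lyz2 averaged 3364 CPM in brain CD11c cells and Lyz1 averaged 4.31. Ly6c2 averaged 10.5 CPM per kb there and Ly6c1 averaged 1.24. Chil3 averaged 102.7 CPM per kb, while Chil4 had between 0 and 3 counts in each of those libraries. The transcripts share stretches, so the counting could have moved reads between partners: of the 50-base stretches in Ly6c2 14.4% also occur in another gene, with 15.4% for Lyz2 and 26.9% for Chil3. The share was 1.67% for F10 and 0.209% for F13a1, and Plac8, Vcan, Hp and Ace had no shared stretch. Exons of F13a1 and Ace overlap those of Gm30489 and Gm11651 on the opposite strand. The sources used here do not say whether counting used the strand, and without it reads of such partners cannot be told apart.

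RefSeq start regions were available for 8 of the 9 genes, in 12 windows, each of the 250 bases before a start. The letters GAGGAA, the core bound by PU.1 and related ETS factors of myeloid cells, occurred on either strand in 5 of the 12 windows, belonging to the 4 genes Ly6c2, Plac8, F13a1 and Ace, and in 23.3% of all 32851 windows. The C/EBP-like pattern TTGCNNAA occurred in 1 of the 12, a window of Plac8, and in 9.56% of all windows. The 2 windows of Ly6c2 overlap and share a GAGGAA site, so the 5 windows with GAGGAA are not separate matches. Ly6c1 also had GAGGAA in both of its windows, while Lyz1 and Chil4 had none. The shares were not compared by a test. Both patterns were chosen after the sequences had been read, and a match describes letters, not a bound site.

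Brain CD11c cells differed from ischemic microglia in 7 of the 9 genes, all higher (edgeR's quasi-likelihood test, Benjamini-Hochberg adjusted over 16345 genes, threshold 0.05, as in every test below). Of all genes tested 38.8% were called in this comparison, with 19.7% higher and 19.1% lower. The median log2 difference of the 9 genes was 4.78, against 0.00 over all genes. The differences were largest for Chil3, F10 and Ly6c2, followed by Plac8, Hp, Vcan and Lyz2. F13a1 and Ace were not called. In 6 of the 9 genes all 4 brain CD11c libraries lay apart from all 4 ischemic microglia libraries, which held for 31.4% of all genes.

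Ischemic microglia differed from control microglia in 2 of the 9, Plac8 and Hp, both higher, where 35.7% of all genes were called, 17.7% higher and 18.0% lower. The median log2 difference of the 9 was 1.09, against -0.05 over all genes. Libraries of the 2 groups did not overlap in 4 of the 9 genes, against 43.3% of all genes, so the share of separated genes was near the background. Counts here were small for several of the 9: Ly6c2, F10, Chil3 and Hp had at most 12 counts in any control library.

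Brain and spleen CD11c cells differed in 6 of the 9 genes, where 64.2% of all genes were called, 31.2% higher in brain and 33.0% lower. The share called was thus near that of all genes. Lyz2, Vcan, F10, F13a1 and Chil3 were higher in the brain cells and Ace was lower. Ly6c2, Plac8 and Hp were not called. The median log2 difference was 2.11, against -0.04 over all genes, and the groups did not overlap in 4 of the 9, against 55.2% of all genes. The 3 comparisons share libraries, so they are not independent of each other.

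**Figure D1:**
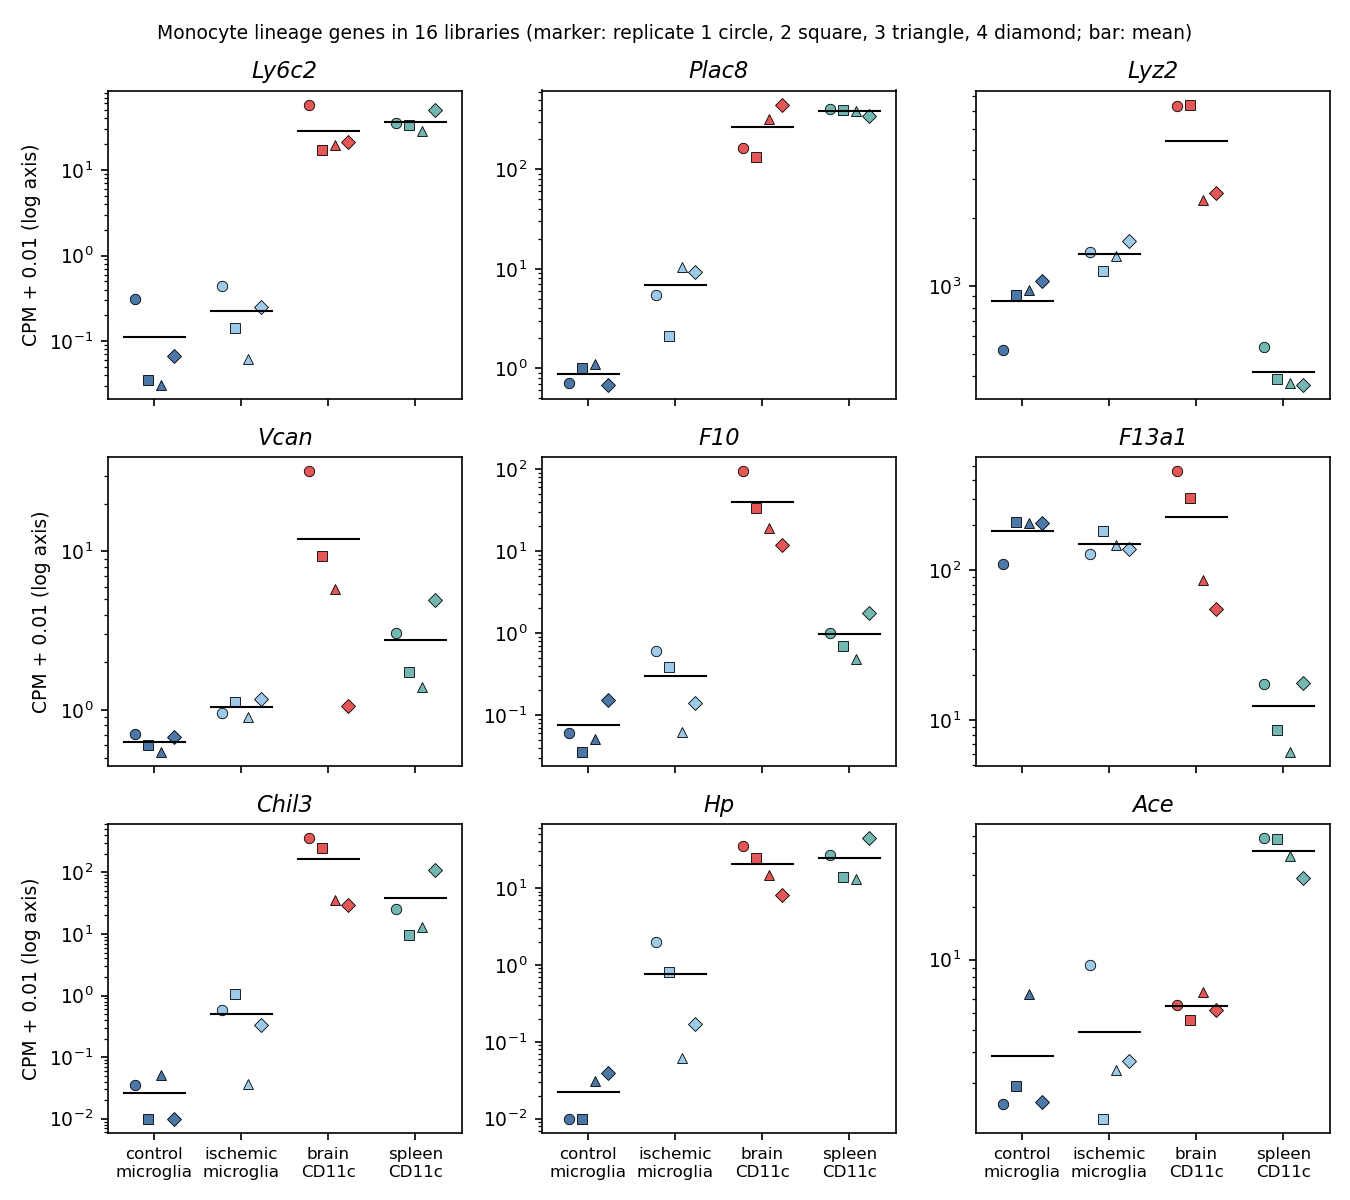
Level of each of the 9 genes in the 16 libraries, in CPM with 0.01 added, on a log axis, by sorted group; each point is a library, its shape is the replicate number, and the bar is the group mean. Plac8, Hp and Ly6c2 are high in both CD11c groups, F10 is high in the brain CD11c libraries, and Ace is highest in the 4 spleen libraries, at between 29.0 and 48.8 CPM.

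Ly6c2 encodes the Ly6C protein anchored to the monocyte surface and lies at chr15:75108158-75111970 on the minus strand (GRCm38, ENSMUSG00000022584). Control microglia had 0.2999, 0.0256, 0.0206 and 0.0578 CPM, from 12, 1, 1 and 2 counts. Ischemic microglia had 0.426, 0.133, 0.0523 and 0.238 CPM. Both groups overlapped near the limit of detection, and their difference was not called (log2 difference 1.09 ± 0.89 SE, adjusted p = 0.368). Brain CD11c libraries had 58.1, 16.9, 19.4 and 21.1 CPM (28.9 ± 19.6, SD, n = 4), and spleen CD11c libraries had 35.3, 33.3, 28.3 and 50.3 CPM (36.8 ± 9.46). Every CD11c library therefore lay far above every microglia library. The brain cells exceeded ischemic microglia by 7.05 ± 0.61 on the log2 scale (adjusted p = 2.7e-07), and by 7.67 without ischemic microglia library 1. Brain and spleen cells overlapped, with a log2 difference of -0.35 and a 95% interval from -1.17 to 0.47 (adjusted p = 0.478). The lack of a call rested on brain library 1: without that library the brain cells were called lower, by a log2 difference of -0.97 (adjusted p = 0.0314).

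Plac8 encodes a small cysteine-rich protein abundant in myeloid precursors, monocytes and plasmacytoid dendritic cells, and lies at chr5:100553725-100572245 on the minus strand (ENSMUSG00000029322). It had between 0.664 and 1.09 CPM in control microglia. In ischemic microglia it had 5.44, 2.10, 10.5 and 9.34 CPM, all above the controls, and it rose by 2.97 ± 0.49 on the log2 scale (adjusted p = 0.000308). The levels in brain CD11c cells were 165, 132.5, 319 and 449 CPM (266.5 ± 146.4, SD, n = 4). They lay above ischemic microglia by 5.28 ± 0.47 on the log2 scale (adjusted p = 4.22e-07). Spleen CD11c libraries were the most even group for any of the 9 genes, at 403, 393, 390.3 and 346 CPM, a coefficient of variation of 6.67%. The brain and spleen groups overlapped through brain library 4 (log2 difference -0.52, 95% interval from -1.29 to 0.24, adjusted p = 0.254). With brain libraries 1 and 2 alone the log2 difference was -1.36. That pair was chosen with earlier results of these data known, so the value is a description and not a test.

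Lyz2 encodes lysozyme, which cuts bacterial cell walls, and lies at chr10:117277331-117282321 on the minus strand (ENSMUSG00000069516). It was the most abundant of the 9 genes in every group, at 655 CPM per kb in control microglia, 1050 in ischemic microglia, 3364 in brain CD11c cells and 315 in spleen CD11c cells. On the scale of CPM, control microglia had 521.5, 913, 959 and 1056 and ischemic microglia had 1412, 1170, 1364 and 1582. The microglia groups did not overlap, yet the difference was not called in the model of all 16 libraries (log2 difference 0.68 ± 0.30 SE, adjusted p = 0.0887). It was called when only those 8 libraries were fitted (0.72, adjusted p = 0.0108) and by DESeq2 (adjusted p = 0.042). Lyz2 in brain CD11c cells was at 6316, 6397, 2410 and 2587 CPM, and spleen CD11c libraries had 535, 388, 372.5 and 363 CPM. The brain cells lay above ischemic microglia by 1.68 ± 0.31 on the log2 scale (adjusted p = 0.000393) and above the spleen cells by 3.42 ± 0.33 (adjusted p = 1.81e-07). The spleen cells were below control microglia (log2 difference -1.06, adjusted p = 0.00534), with control library 1 inside the spleen range.

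Chil3 encodes Ym1, a secreted chitinase-like protein without chitinase activity, and lies at chr3:106147554-106167564 on the minus strand (ENSMUSG00000040809). Control microglia had 1, 0, 2 and 0 counts. Ischemic microglia had 23, 39, 1 and 12 counts, or 0.576, 1.04, 0.0261 and 0.318 CPM. Pooled over libraries, 75 counts against 3 gave a ratio of 26.4 with an exact 95% counting interval from 8.70 to 131, but the spread between libraries was wide and the difference was not called (adjusted p = 0.182). DESeq2 called it, with an adjusted p of 0.00201. Brain CD11c cells had Chil3 at 360.5, 245, 35.3 and 30.0 CPM (168 ± 163, SD, n = 4), all above every microglia library. The log2 difference from ischemic microglia was 8.41 ± 1.20 (adjusted p = 5.98e-05), 7.73 without brain library 1 and 9.08 without ischemic library 2. Spleen CD11c libraries had 25.8, 9.75, 12.9 and 107 CPM and overlapped the brain range. The brain cells were called higher by 2.11 ± 0.84 on the log2 scale (adjusted p = 0.0403). That call was lost in 10 of the alternatives, among them DESeq2 (adjusted p = 0.0713) and the fits without brain library 1 (1.37, adjusted p = 0.185) or brain library 2 (1.83, adjusted p = 0.101). Leaving out spleen library 1, 2 or 3 also lost it, at adjusted p of 0.0857, 0.0955 and 0.0932, while leaving out spleen library 4 raised the difference to 3.37.

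Hp encodes haptoglobin, which binds free haemoglobin, and lies at chr8:109575128-109579172 on the minus strand (ENSMUSG00000031722). Control microglia had 0, 0, 1 and 1 counts and ischemic microglia had 79, 30, 2 and 6, so each ischemic library lay above each control one. The pooled ratio was 61.8, with an exact 95% counting interval from 16.7 to 517. The rise was called (adjusted p = 0.00719), also without ischemic library 1, which held most of the counts (adjusted p = 0.0317), but not by limma-voom (adjusted p = 0.198). In the 4 brain CD11c libraries Hp had 35.6, 24.6, 14.9 and 8.16 CPM and spleen CD11c libraries had 27.1, 14.1, 13.2 and 44.6 CPM. These ranges overlapped (log2 difference -0.25, 95% interval from -1.44 to 0.94, adjusted p = 0.734), and the sign of the difference turned on single libraries. Ischemic microglia had between 0.0523 and 1.98 CPM, below all brain CD11c libraries by 4.78 ± 0.75 on the log2 scale (adjusted p = 0.000119), and by 5.96 without ischemic library 1.

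Vcan encodes versican, a large proteoglycan that binds hyaluronan, and lies at chr13:89655312-89742509 on the minus strand (ENSMUSG00000021614). It was the least abundant of the 9 genes per kb in brain CD11c cells, at 0.833 CPM per kb. Control microglia had between 0.535 and 0.700 CPM and ischemic microglia had between 0.889 and 1.16, without overlap. Their difference of 0.73 ± 0.73 on the log2 scale was not called (adjusted p = 0.462), and a fit of those 8 libraries alone called it (adjusted p = 0.021). Vcan in brain CD11c cells was at 32.0, 9.36, 5.78 and 1.04 CPM, a span of 30.7-fold, the widest of the 9 genes in that group. Brain library 4 lay within the range of ischemic microglia. The brain cells were called higher than ischemic microglia (log2 difference 3.54 ± 0.72, adjusted p = 0.00107), by 2.40 without brain library 1. Spleen CD11c libraries had 3.06, 1.72, 1.38 and 4.91 CPM. The brain cells were called higher than the spleen cells (2.12 ± 0.67, adjusted p = 0.0113), but the call was lost in 4 alternatives. The log2 difference was 0.93 without brain library 1 (adjusted p = 0.129) and 1.47 with limma-voom (adjusted p = 0.0938), and with only the 2 groups fitted the adjusted p was 0.0555. With brain libraries 3 and 4 alone, a pair chosen with earlier results of these data known, it was 0.28.

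F10 encodes the zymogen of coagulation factor X, the protease that turns prothrombin into thrombin, and lies at chr8:13037308-13056676 on the plus strand (ENSMUSG00000031444). Microglia had between 1 and 24 counts per library, at 0.04998, 0.0256, 0.0411 and 0.144 CPM in controls and 0.602, 0.372, 0.0523 and 0.132 CPM after ischemia (log2 difference 2.18 ± 1.12, adjusted p = 0.144). Brain CD11c libraries had 93.5, 33.5, 18.8 and 12.0 CPM. Spleen CD11c libraries had 0.996, 0.680, 0.474 and 1.76 CPM. All 4 brain CD11c libraries were therefore above the 12 others. The log2 difference was 7.07 ± 0.77 from ischemic microglia (adjusted p = 3.2e-06) and 5.34 ± 0.68 from spleen CD11c cells (adjusted p = 6.06e-06). Without brain library 1 these were 6.20 and 4.43, both called, and without ischemic library 1 the former was 7.73.

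F7, the gene of coagulation factor VII, ends 1498 bases before F10 starts on the same strand, with no protein-coding gene between them. It was counted at 32.1, 19.4, 1.47 and 3.32 CPM in the brain CD11c libraries. In control microglia it had no count in any library, and it had at most 2 counts in an ischemic microglia library and at most 3 in a spleen library. The neighbours thus both had their highest levels in brain CD11c cells, with libraries 1 and 2 above libraries 3 and 4.

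F13a1 encodes the A subunit of factor XIII, the transglutaminase that cross-links fibrin, and lies at chr13:36867178-37050244 on the minus strand (ENSMUSG00000039109). Unlike the other clotting factor genes here it was high in microglia, at 109.9, 211, 207 and 208 CPM in controls and 128, 184.5, 147 and 138 CPM after ischemia (log2 difference -0.30 ± 0.52, adjusted p = 0.695). In brain CD11c cells F13a1 had 458, 305, 87.0 and 55.7 CPM, with 2 above and 2 below all ischemic microglia libraries. The difference from ischemic microglia was not called (0.60, 95% interval from -0.42 to 1.62, adjusted p = 0.394). It depended on which brain libraries were fitted: with libraries 1 and 2 alone it was 1.35, and with libraries 3 and 4 alone it was -1.05. These pairs were chosen with earlier results of these data known, so both values are a description and not a test. Spleen CD11c libraries had 17.4, 8.61, 6.15 and 17.8 CPM, below every other library. The brain cells exceeded them by 4.18 ± 0.59 on the log2 scale (adjusted p = 1.99e-05), and by 3.55 without brain library 1.

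Border macrophages, which line the vessels and meninges of the brain, are also known to use F13a1 and Lyz2. Their 11 markers summed to 1752 CPM in control library 1, where F13a1 and Lyz2 were lowest, and to between 2721 and 2771 in the other controls. In the brain CD11c libraries the sum was 2177, 2230, 1042 and 834 CPM, in step with F13a1 and Lyz2. Mrc1 had 173, 187, 69.8 and 101 CPM there and Pf4 had 55.3, 71.6, 5.23 and 15.3. Cd163 had 6.35, 3.45, 11.4 and 20.2 CPM and Lyve1 had 1.70, 0.364, 3.96 and 3.61 CPM, both running the other way. Other markers of the list made up most of the sum. Against ischemic microglia, 1 of the 11 markers was called higher in brain CD11c cells and 6 were called lower. Their median log2 difference was -0.92. Of all genes tested, 19.7% were called higher and 19.1% lower. The part of these cells in the levels of F13a1 and Lyz2 was not tested.

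Ace encodes angiotensin-converting enzyme and lies at chr11:105967945-105989964 on the plus strand (ENSMUSG00000020681). Spleen CD11c libraries had 48.8, 48.3, 38.7 and 29.0 CPM, above every other library. Brain CD11c libraries were even and low, at 5.50, 4.54, 6.59 and 5.19 CPM (5.45 ± 0.855, SD, n = 4). Control microglia had 1.52, 1.92, 6.40 and 1.56 CPM and ischemic microglia had 9.32, 1.25, 2.38 and 2.67, so a single library stood above the rest in each microglia group. The brain cells were lower than the spleen cells by a log2 difference of -2.92 ± 0.55 (adjusted p = 0.000268). The difference from ischemic microglia was not called (0.48, 95% interval from -0.57 to 1.52, adjusted p = 0.519). Without ischemic library 1 it was 1.39 and called (adjusted p = 0.0278).

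**Figure D2:**
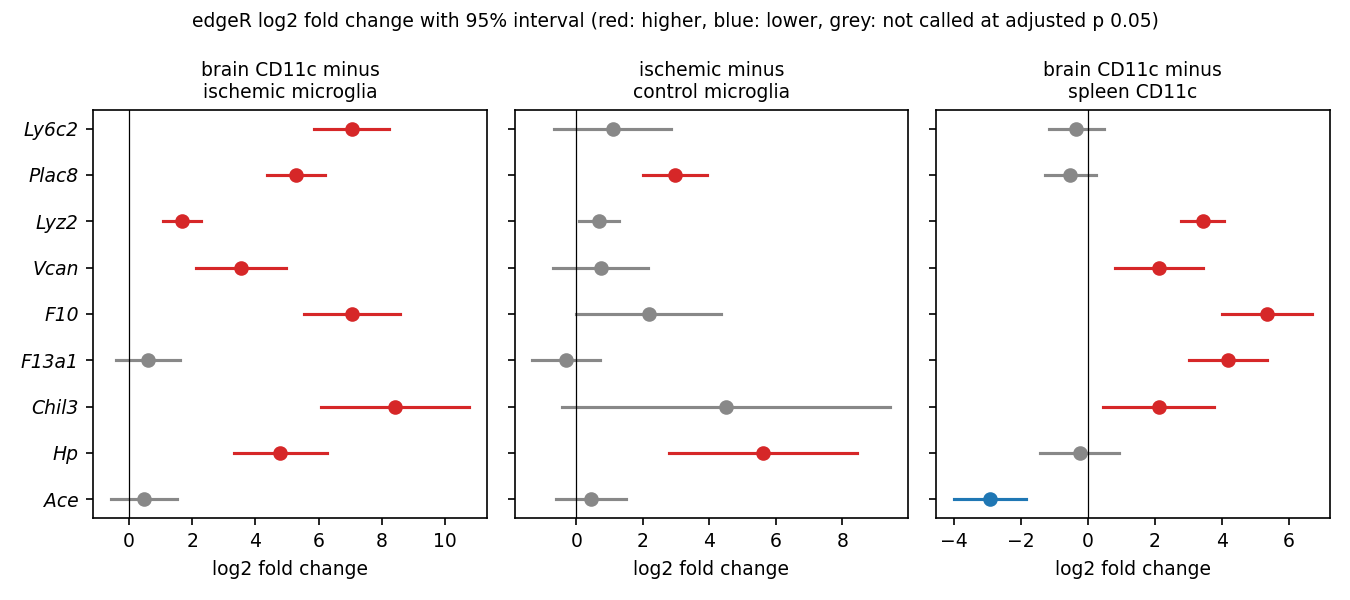
edgeR log2 fold change of each gene with its approximate 95% interval in the 3 comparisons, with genes called higher in red, called lower in blue and not called in grey. Brain CD11c cells are higher than ischemic microglia in 7 of the 9 genes, and Ace is the gene called lower in brain than in spleen CD11c cells, by a log2 difference of -2.92.

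Against control microglia, the CD11c groups of both organs stood high. Brain CD11c cells were higher in 7 of the 9 genes, where 58.9% of all genes were called and 29.3% were called higher, with a median log2 difference of 8.14. F13a1 (0.30, adjusted p = 0.646) and Ace (0.92, adjusted p = 0.156) were not called; Ace was called without control library 3 (1.71, adjusted p = 0.0107). With only brain libraries 3 and 4 the log2 difference of F13a1 was -1.37, and with only 1 and 2 it was 1.05. Those pairs were chosen with earlier results of these data known, so neither value is a test. Pooled counts of Chil3 were 9060 times those of control microglia in brain CD11c cells (exact 95% counting interval from 3100 to 43900) and 2040 times in spleen CD11c cells (699 to 9910). For Hp the ratios were 1690 (468 to 14000) and 1960 (542 to 16200). Spleen CD11c cells were called in all 9 genes, where 68.8% of all genes were called, 37.1% higher and 31.7% lower: 7 were higher, and Lyz2 and F13a1 were lower. With limma-voom the differences of Vcan, F10 and Chil3 were not called (adjusted p = 0.143, 0.117 and 0.0548). Against ischemic microglia, spleen CD11c cells were higher in 5 of the 9 and lower in Lyz2 and F13a1, where 68.5% of all genes were called, 37.2% higher and 31.3% lower. Vcan (1.42, adjusted p = 0.0776) and F10 (1.73, adjusted p = 0.0515) were not called there, but both were called by DESeq2 (adjusted p = 0.0369 and 0.0396).

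Ordered by their group means, the 9 genes showed few patterns. Ly6c2, Plac8 and Hp ran from spleen CD11c to brain CD11c cells, then ischemic and control microglia; the CD11c groups were not told apart by the test, nor were the microglia groups for Ly6c2. F10, Chil3 and Vcan ran from brain CD11c to spleen CD11c cells, then ischemic and control microglia, with the microglia groups not told apart in any of the 3 and spleen cells not told apart from ischemic microglia for F10 and Vcan. Lyz2 ran from brain CD11c cells to ischemic microglia, control microglia and spleen CD11c cells, with the middle pair not told apart. F13a1 was not told apart among the 3 brain groups and was lowest in spleen. Ace was highest in spleen, and the 3 brain groups below it were not told apart. In all, 5 of the 9 genes had their highest mean in brain CD11c cells and 4 in spleen CD11c cells.

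The 4 brain CD11c libraries varied widely in these genes. Vcan, F10, F13a1, Chil3 and Hp had their levels in the same order, from library 1 down to library 4, with a highest level 30.7, 7.80, 8.23, 12.0 and 4.36 times the lowest. Plac8 ran the other way, with its 2 highest levels in libraries 3 and 4. Ly6c2 stood out in library 1, Lyz2 was high in libraries 1 and 2, and Ace varied least, by 1.45-fold. In the labels, libraries 1 and 2 are named by the eYFP line and a number, and libraries 3 and 4 by a letter and a number, a naming that the sources used here do not explain.

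Marker lists did not all follow the same order of libraries. Conventional dendritic cell markers summed to 1118, 1655, 2594 and 2651 CPM in the 4 brain CD11c libraries, and border macrophage markers to 2177, 2230, 1042 and 834. Homeostatic microglia markers, at 11490, 11660, 10990 and 10870 CPM, hardly moved. Among classical monocyte genes, Thbs1, which encodes the matrix protein thrombospondin 1, had 5226, 4335, 840 and 691 CPM, and Clec4e, which encodes the receptor Mincle, had 366, 244, 112 and 91.9. Ccr2, the chemokine receptor by which classical monocytes leave the marrow, had 656, 686, 610.5 and 535.5, a far smaller spread. Neutrophils are also known to use Hp, Chil3 and Lyz2. Of the 15 neutrophil markers, 5 were called higher and 1 lower in brain CD11c cells than in ischemic microglia, where 19.7% of all genes were called higher and 19.1% lower. The sum of these markers in the brain CD11c libraries was 284, 325, 418 and 296 CPM, mostly Csf3r, which microglia also use. Mmp8, a neutrophil collagenase, had 25.0, 19.8, 5.42 and 1.46 CPM, in the same order of libraries as Chil3 and Hp. Lcn2 was also highest in library 1, at 1.00 CPM, and Mmp9 was highest in library 2, at 13.4. Ltf, S100a8, S100a9 and Ngp were instead highest in library 4, at 2.56, 2.18, 1.84 and 1.20 CPM. Camp and Ly6g had at most 0.0277 CPM. The part of other cell types in the levels and the spread of the 9 genes was not tested.

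**Figure D3:**
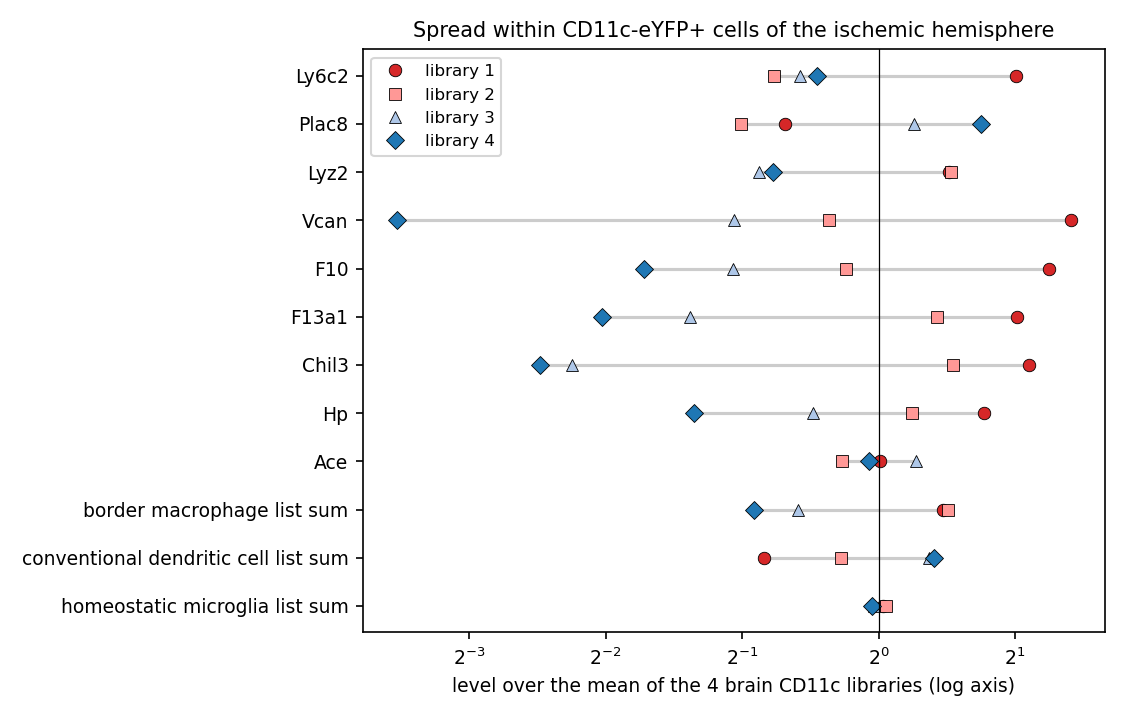
Level of each gene, and summed level of 3 marker lists, in each brain CD11c library over the mean of the 4, on a log axis; a marker is a library. Vcan spans 30.7-fold between libraries and Ace 1.45-fold, the dendritic cell sum is lowest in library 1, and the microglia sum is nearly the same in all 4.

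The spleen CD11c libraries also varied. Library 4 was highest in 6 of the 9 genes, Ly6c2, Vcan, F10, F13a1, Chil3 and Hp, and lowest in the other 3, Plac8, Lyz2 and Ace, which were highest in library 1. In the labels, spleen library 4 carries the same number as brain library 1, which was the highest of the brain CD11c libraries in the same 6 genes; whether they came from the same animal is not stated. The 15 neutrophil markers summed to 690.5, 356, 411 and 1275 CPM in the spleen libraries. S100a9, a neutrophil calcium-binding protein, had 218, 111.5, 127 and 436.5 CPM, Camp had 19.2, 7.88, 9.20 and 42.0, and Ngp had 52.6, 17.2, 20.97 and 116. Chil3 and Hp, at 107 and 44.6 CPM in library 4, were highest where these markers were highest. The part of neutrophil RNA in the spleen levels of Chil3 and Hp was not tested. Hp was not called between brain and spleen with or without spleen library 4 (log2 difference -0.25 and 0.20), and the excess of Chil3 in the brain was 3.37 without it.

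Other genes of the same pathways were read from lists, and each is given by its counts. Beside them stand the shares of all genes called: 19.7% higher and 19.1% lower in brain CD11c cells against ischemic microglia, 17.7% and 18.0% in ischemic against control microglia, and 31.2% and 33.0% in brain against spleen CD11c cells, with medians over all genes of 0.00, -0.05 and -0.04. Of 20 further classical monocyte genes, 15 were higher and 2 lower in brain CD11c cells than in ischemic microglia, with a median log2 difference of 3.76. S100a6, a calcium-binding protein, averaged 148.6 CPM against 1.68 (6.47 ± 0.31, adjusted p = 4.61e-10). Ifitm6, of the interferon-induced transmembrane family, averaged 58.9 CPM against 0.929 (5.98 ± 0.40). Csf1r, the receptor on which microglia depend, was lower (-1.51 ± 0.14). In ischemic against control microglia 10 of the 20 were higher and 1, Ccr2, was lower. Fn1, the gene of fibronectin, rose from 4.70 to 1628 CPM (8.44 ± 0.77), Clec4e from 0.873 to 12.7 (3.88 ± 0.61) and Clec4d from 0.878 to 5.57 (2.69 ± 0.66). Ly6c2 and Chil3 were not called in that comparison. Between brain and spleen CD11c cells 14 of the 20 were higher and 3 lower, led by Thbs1 (2773 CPM against 1.02), Fn1 (2498 against 22.3) and Clec4e (203 against 4.47).

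Of 13 tested nonclassical monocyte genes, 4 were higher and 7 lower in brain than in spleen CD11c cells, with a median log2 difference of -0.92. As with Ace, Adgre4, Treml4 and Cd300e were high in the spleen: Adgre4 averaged 291 CPM against 5.89 in brain (-5.63 ± 0.43), Treml4 197 against 6.61 (-4.90 ± 0.32) and Cd300e 69.1 against 4.24 (-4.02 ± 0.44). Cx3cr1 went the other way, at 29.1 CPM in spleen and 1312 in brain (5.49 ± 0.17), as did Nr4a1, a transcription factor needed for nonclassical monocytes, at 70.3 and 1024 CPM (3.87 ± 0.28). Both were also high in microglia, at 3128 and 993 CPM in controls. In brain CD11c cells against ischemic microglia 6 of the 13 were higher and 2 lower, and in ischemic against control microglia 6 were higher and 1 lower.

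Of 22 tested genes of coagulation and the vitamin K cycle, 6 were higher and 10 lower in brain CD11c cells than in ischemic microglia (median -0.28), so the list did not move one way as F10 and F7 did. Plat, the tissue plasminogen activator, averaged 8.93 CPM against 1.31 (2.76 ± 0.41), and Thbd, thrombomodulin, averaged 47.1 against 8.72 (2.43 ± 0.20). F3, which encodes tissue factor, the partner of factor VII, was lower at 2.63 against 6.57 (-1.32 ± 0.37). Vkorc1 and Ggcx, whose products carry out the vitamin K cycle that carboxylates the factor X zymogen, averaged 14.5 and 13.8 CPM in the brain CD11c cells and 22.9 and 19.0 in ischemic microglia. In ischemic against control microglia 8 of the 22 were higher and 4 lower, with Plaur (2.42 ± 0.29) and F3 (1.04 ± 0.37) among those that rose. Against spleen CD11c cells 15 of the 22 were higher in brain CD11c cells and 4 lower (median 2.03). F13b, the gene of the B subunit of factor XIII, had no count in any of the 12 brain libraries and between 3 and 10 in the spleen libraries.

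For genes around Vcan, Hp and Ace the share called in brain CD11c cells against ischemic microglia was near or somewhat above the 38.8% of all genes, so it sets none of these lists apart. Of 13 tested genes of the hyaluronan and versican matrix, 2 were higher and 3 lower in brain CD11c cells than in ischemic microglia. Cd44, the main receptor for hyaluronan, averaged 438 CPM against 35.0 (3.65 ± 0.26) and had risen in ischemic microglia from 6.04 CPM in controls (2.53 ± 0.25), while Adamts1, a protease that cuts versican, was lower at 93.8 against 302 CPM (-1.69 ± 0.26). Of 12 genes of haemoglobin and haem handling 4 were higher and 2 lower. The lower ones included Cd163, the receptor for the complex of haptoglobin and haemoglobin, at 10.4 against 73.5 CPM (-2.83 ± 0.47), and Slc40a1, the iron exporter, at 39.0 against 128 (-1.72 ± 0.16). Hmox1, which breaks down haem, was not called, at 281 and 292 CPM (adjusted p = 0.933). Of 5 tested renin-angiotensin peptidases 2 were higher; Anpep, an aminopeptidase that acts on angiotensin fragments, averaged 139 CPM against 4.10 (5.09 ± 0.35), and it averaged 151 in spleen CD11c cells.

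**Figure D4:**
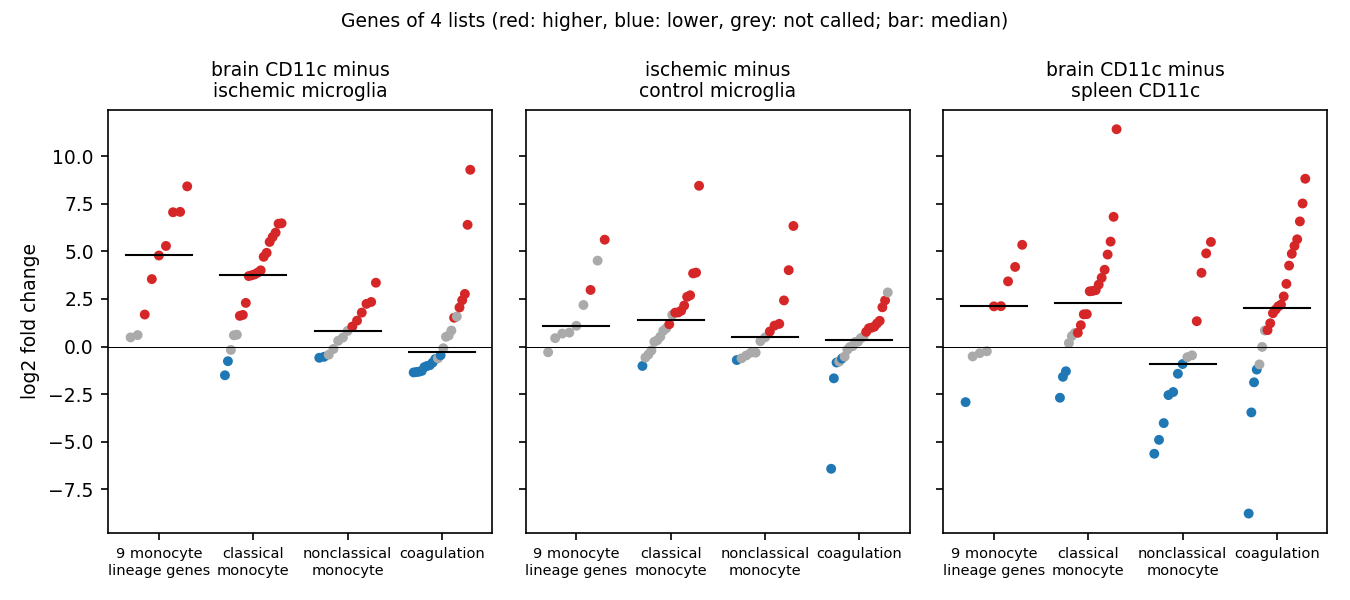
Log2 fold changes of the 9 genes and of 3 lists in the 3 comparisons; each point is a gene, red called higher, blue called lower, grey not called, and the bar is the median. The 9 genes and the classical monocyte list have medians of 4.78 and 3.76 in brain CD11c cells against ischemic microglia, and the nonclassical list has a median of -0.92 in brain against spleen.

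Genes with the most similar pattern over the 16 libraries were sought among 10725 genes with a mean of at least 5 CPM in a group, by Pearson's r of log2 CPM. These values mainly reflect the 4 group means that all genes share, and they are given as a description. Closest to Ly6c2 were Adgre5 (0.980), Cd177 (0.978) and Cd200 (0.976), and closest to Plac8 were Adgrg5 (0.987), Sigirr (0.987) and Serpinb6b (0.985). Lyz2 was nearest to Gnpda1 (0.979), and Vcan to Pdap1 (0.951). F10 was nearest to Vdr, the vitamin D receptor gene (0.977), and Tbc1d2 (0.971), F13a1 to Mcfd2 (0.976), and Ace to Il4i1 (0.949). Chil3 was nearest to Sirpb1c (0.977) and Ms4a8a (0.972). Hp was nearest to Acp5 (0.972) and Ptger2 (0.967), with Chil3 next (0.965), another of the 9 genes.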

How the data were processed

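Poly(A) RNA of 16 sorted libraries was sequenced from stranded libraries, and the authors deposited whole-number read counts per gene in a single table. Per the submitters' processing notes, FastQC 0.11.5 and STAR 2.5.3a were used on GRCm38; for the counting program, its strand setting and its annotation the sources used here give nothing. Of the 50600 gene identifiers, 50376 were named by GENCODE M21 and 224 were left unnamed. Every library column was matched to a sample by its label, with 0 columns left over.

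From the counts, edgeR 4.0.16 (filterByExpr, TMM scaling, robust quasi-likelihood F test, Benjamini-Hochberg adjustment, threshold 0.05, two-sided) was fitted in R 4.3.3 to all 16 libraries with a mean per group. Library totals were between 31.57 and 48.25, in units of 1e6 counts, and intervals on pooled counts cover counting error only. The SE of a log2 difference was worked back from that difference and its F statistic, and its 95% interval is 1.96 SE to either side. Such intervals are approximate and can be narrower than the test implies. For Vcan in spleen CD11c cells against ischemic microglia the interval ran from 0.08 to 2.77, although the F test gave an unadjusted p of 0.0557. CPM are counts over the TMM-scaled library size, log2 CPM has a prior count of 2, and CPM per kb uses the joined exon length of GENCODE M21. Alternatives were DESeq2 1.42.0, voom of limma 3.58.1, other scaling, no filter, fewer libraries, and each library left out.

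The 9 genes, the gene lists and the 2 pairs of brain CD11c libraries were chosen with earlier results of these data known. From each pathway list up to 3 genes with the largest absolute log2 fold change and at least 5 CPM in the higher group were named; some named by this rule are not reported here. Ccr2, Csf1r, Clec4e and Thbs1 by library, Cd300e, Nr4a1, F3, Vkorc1, Ggcx, F13b and Hmox1 were chosen after their values were seen.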

Additional observations from a re-analysis of the deposited data

Results flagged for a closer look

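Of the 36 sets of 4 libraries (9 genes in 4 groups), 6 held a library that stood apart by Dixon's test, with a gap to its nearest neighbour that took up most of the whole range. The cut-off flags about 1 in 20 sets of 4 independent, normally distributed values. Levels from a few counts need not follow that distribution, and the 36 sets share libraries. The 6 sets therefore cannot be weighed against that rate. In control microglia, the first library had Ly6c2 at 0.30 CPM against 0.0206 to 0.0578 in the others, and F13a1 at 110 CPM against 207 to 211. The third control library had Ace at 6.40 CPM, against 1.52 to 1.92 in the others. Among brain CD11c libraries the first had Ly6c2 at 58.1 CPM, where the others had 16.9 to 21.1. Among spleen CD11c libraries the first had Lyz2 at 535 CPM against 363 to 388, and the fourth had Chil3 at 107 CPM against 9.75 to 25.8.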

How the results depend on the processing

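No paired analysis was possible because the replicate numbers used here follow accession order, the numbers in the labels recur across separate mouse lines, and the brain and spleen CD11c groups share a single one. Over all 6 comparisons, alternatives left 760 values for single genes on the same side of the threshold and in the same direction, while 18 lost a call, 20 gained one, and 10 changed sign, some of these also losing or gaining a call. In ischemic against control microglia the number of the 9 genes called was 2, but 5 with DESeq2 and 1 with limma-voom, and Ace ranged from -0.47 to 1.21 when single libraries were left out, with the lowest value without ischemic library 1. With only brain CD11c libraries 3 and 4, F13a1 turned to -1.05 against ischemic and -1.37 against control microglia, and Chil3 to -0.29 against spleen cells. With only libraries 1 and 2, Plac8 was at -1.36, and Ly6c2 and Hp turned to 0.03 and 0.28, all against spleen cells. When single libraries were left out, Hp ranged there from -0.67 to 0.20, with 0.02 without brain library 4 and 0.20 without spleen library 4. F13a1 against control microglia turned to -0.14 with limma-voom and ranged from -0.30, without brain library 1, to 0.62 when single libraries were left out. The causes were not tested. Scaling by library totals moved the share of calls that were higher from 50.7% to 62.4% in brain CD11c cells against ischemic microglia, from 49.5% to 33.5% in ischemic against control microglia, and from 48.6% to 34.9% in brain against spleen cells. For spleen cells it moved from 53.9% to 63.9% against control and from 54.3% to 69.3% against ischemic microglia. The median of all genes moved by more than 0.1 in 4 comparisons, most in spleen cells against ischemic microglia, from 0.121 to 0.50. No sign of the 9 genes changed with that scaling. Levels of a few counts limit Ly6c2, F10, Chil3 and Hp in microglia.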
